A study of Sus scrofa with 4 samples.

Results

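HOX genes were read in RNA sequencing libraries of epidermal cells that had been sorted from LGR5-H2B-GFP pigs, in which a histone-GFP fusion stands in one allele of LGR5 and is driven by the LGR5 promoter. The members were rows of the count table named HOXA, HOXB, HOXC or HOXD with a number, and those described here were 35 of 29837 named genes. They were 10 HOXA, 8 HOXB, 9 HOXC and 8 HOXD genes. Cells with high GFP (LGR5-high) and cells without GFP (LGR5-negative) came from 2 juvenile animals, named 88R and 95R, and each animal gave 1 library of either kind. Both populations of an animal carried the same knock-in allele, and the labels do not say whether an animal was made directly by nuclear transfer from the edited fibroblast clone or was bred from such animals. The body site from which the skin was taken is not given in the sources used here.

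HOX genes encode homeodomain transcription factors that lie side by side in clusters, and genes at the same place in different clusters form a numbered paralog group. During development the low numbers are switched on early and toward the head, and the high numbers later and toward the tail and the tips of the limbs. Adult skin keeps part of this pattern, so that skin cells of different body sites express different HOX sets. HOXC13 has a further role in the hair follicle, where it regulates hair keratin genes.

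The libraries held between 30696803 and 32463362 counts on named genes, and 3 counts of a gene, the limit of detection used here, came to 0.0872 to 0.105 CPM (the unit of counts after scaling for library size with edgeR's TMM), for counting error only. Of 8 markers of the hair follicle stem cells and outer root sheath, 7 were higher in LGR5-high, with summed levels of 1766 to 1782 CPM against 195 to 245 CPM. LGR5, among the 7, was the gene of the reporter, so its difference was fixed by the sort. It held 4551 and 6224 counts in LGR5-high and 36 and 109 in LGR5-negative, in the order 88R and 95R that is kept below. FOXI3, also among the 7, held 128 and 149 counts against 0 and 5 and entered the test only through LGR5-high. Of the 7 suprabasal epidermal markers tested, 6 were lower in LGR5-high, and the keratinocyte markers summed to between 34429 and 41083 CPM in all libraries. Markers of other cells also moved. Of their called genes, NCAM1, PDGFRA, LUM, CDH5, KDR, PTPRC and CD207 held under 10 counts in both libraries of 1 population. These genes entered the test only through the other population and are included in the counts that follow. Among the 8 dermal fibroblast markers tested, COL1A1, COL1A2 and FBLN1 were higher and COL3A1, PDGFRA, DCN, LUM and DPT lower in LGR5-high, and the list summed to 751 and 1034 CPM in LGR5-high and to 417 and 259 CPM in LGR5-negative, with PDGFRA at 3 to 21 counts and PRRX1 at 5 to 10 counts. Melanocyte markers (5 of 6 lower in LGR5-high) summed to 37.2 and 32.9 CPM in LGR5-high and to 63.4 and 238 CPM in LGR5-negative, and endothelial markers (4 of 5 lower) to 6.11 and 7.47 CPM against 20.8 and 20.9 CPM. Langerhans and other immune markers (3 of 4 lower, 1 higher) summed to 7.04 and 8.77 CPM against 8.45 and 14.5 CPM. Nerve and Schwann markers (2 of 3 higher) summed to 13.3 and 18.6 CPM against 0.982 and 3.01 CPM, smooth muscle markers (2 of 4 higher) to 10.9 and 10.7 CPM against 4.56 and 4.76 CPM, and dermal papilla markers (1 of 3 higher) to 13.9 and 11.0 CPM against 6.49 and 5.59 CPM. The part of these cells in the HOX values was not tested, and in sorted bulk samples fewer cells of a type and less RNA per cell cannot be told apart.

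The first question was which HOX genes were expressed in either population. A gene was taken as expressed when both libraries of at least 1 population held 10 or more counts, and 17 of the 35 HOX genes met this, beside 53.3% of all named genes. They were 7 of 10 HOXA genes (HOXA2 to HOXA7 and HOXA9), 4 of 8 HOXB genes (HOXB2, HOXB3, HOXB6 and HOXB7), 6 of 9 HOXC genes (HOXC4, HOXC5, HOXC6, HOXC8, HOXC9 and HOXC13) and 0 of 8 HOXD genes. All 17 were expressed in LGR5-negative and 16 of them in LGR5-high. The exception was HOXA9, which had 1 and 25 counts in LGR5-high.

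**Figure D1:**
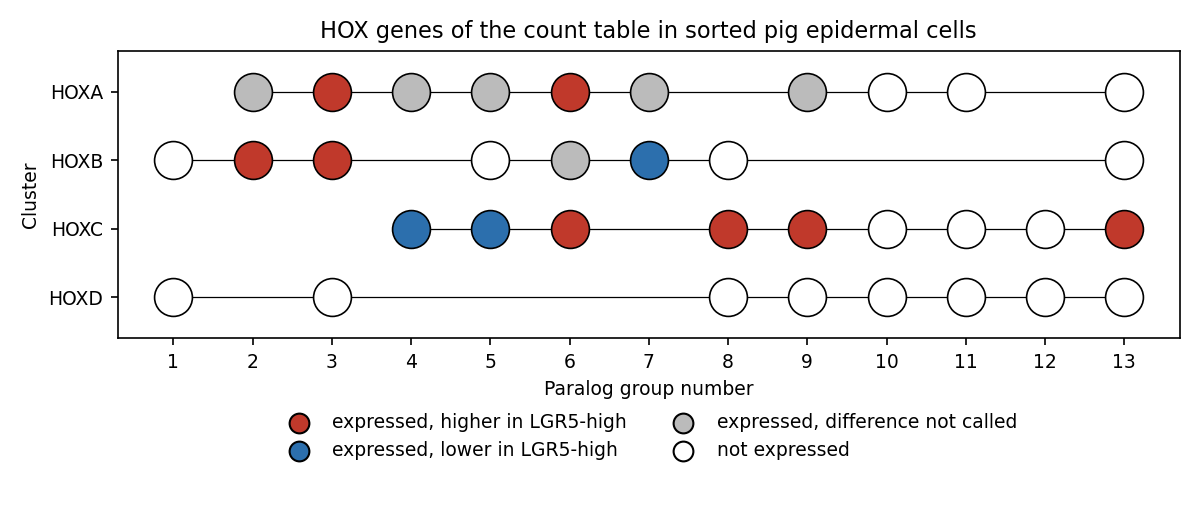
Map of the 35 HOX genes by cluster (vertical) and paralog group number (horizontal). Filled circles are the 17 expressed genes, coloured by the comparison of LGR5-high with LGR5-negative (8 higher, 3 lower, 6 not called), and open circles are the 18 genes that were not expressed, among them the whole HOXD row.

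The unexpressed genes lay mostly at the high numbers, and those at lower numbers were HOXB1, HOXB5, HOXB8, HOXD1, HOXD3, HOXD8 and HOXD9. Of the 8 genes of paralog groups 10, 11 and 12, those of HOXA, HOXC and HOXD together, 0 were expressed and the highest count was 10. Paralog group 13 was split, since HOXC13 held between 823 and 3781 counts while HOXA13, HOXB13 and HOXD13 had 0 counts in every library. HOXA11, HOXB1 and HOXD12 were at 0 as well, which allows up to 3 counts, or 0.0872 to 0.105 CPM. The other 12 unexpressed genes held at least 1 count somewhere. HOXB5 had 5 and 9 counts in LGR5-high and 5 and 5 in LGR5-negative, and HOXC10 had 8 and 7 against 4 and 2. HOXD8 reached 28 counts in the LGR5-negative library of 95R, with 5 in that of 88R and 3 and 1 in LGR5-high, the most of any HOXD gene. HOXC12 reached 10 counts in the LGR5-high library of 95R. With a minimum of 5 counts, HOXB5, HOXC10 and HOXD8 would be added and 20 genes would be expressed, and with 20 counts the number stayed at 17. Levels of different genes were not ranked, because the table of gene spans used here holds no transcript lengths.

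The second question was which HOX genes differed between the populations. The test was the quasi-likelihood test of edgeR on the counts of all genes, and a gene was called at an adjusted p-value under 0.05. Of the 17 HOX genes tested, which were the 17 expressed, 8 were higher in LGR5-high (47.1%, beside 22.7% of all 15980 genes tested) and 3 were lower (17.6%, beside 22.0%). The 8 were HOXA3, HOXA6, HOXB2, HOXB3, HOXC6, HOXC8, HOXC9 and HOXC13, and the 3 were HOXB7, HOXC4 and HOXC5. The median log2 fold change of the 17 genes was 0.45, beside 0.02 for all genes tested. The CPM of the 2 populations did not overlap for 15 of the 17 genes, HOXA9 among them, 88.2% beside 76.6% of all genes tested. With the animal as a replicate block 10 HOX genes were higher and 5 lower, beside 28.5% and 27.2% of all genes, and the genes added were HOXA2, HOXA5, HOXA9 and HOXB6. Of these 4, DESeq2 with the same block called HOXA9 (adjusted p = 0.00509) and not HOXA2, HOXA5 or HOXB6 (adjusted p = 0.268, 0.176 and 0.0643). HOXA9 met the expression rule only through LGR5-negative, where its values were higher, so its call is not counted as support. Scaling by library size only gave 10 higher and 2 lower.

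**Figure D2:**
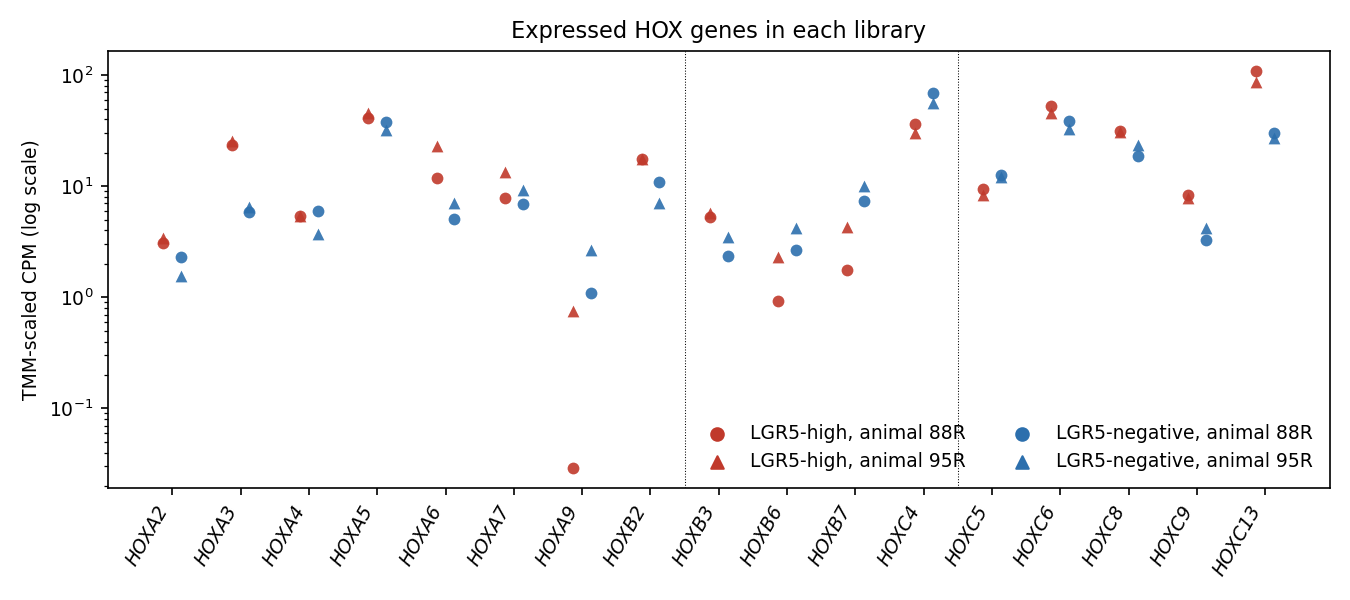
TMM-scaled CPM (log axis) of the 17 expressed HOX genes in each of the 4 libraries, with LGR5-high in red, LGR5-negative in blue, animal 88R as circles and animal 95R as triangles. Within a gene the populations can be compared, and heights of different genes cannot, since CPM is not divided by length; HOXC13 lies at 86.2 to 110 CPM in LGR5-high and at 27.2 to 30.1 CPM in LGR5-negative.

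HOXC13, the hair follicle factor of the family, held 3781 and 2849 counts in LGR5-high and 859 and 823 counts in LGR5-negative. Both LGR5-high libraries lay well above both LGR5-negative libraries. The mean levels were 98.1 ± 16.8 CPM (SD, n = 2 animals) and 28.7 ± 2.06 CPM (SD, n = 2), with a log2 fold change of 1.77 (standard error 0.142, adjusted p = 4.11e-04), or 3.42-fold. Of the neighbouring genes in the HOXC cluster, HOXC12, HOXC11 and HOXC10 had at most 10 counts, so that HOXC13 was separated from the next expressed gene, HOXC9, by 3 unexpressed ones.

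The expressed HOXC genes fell into both directions. HOXC9, HOXC8 and HOXC6, which take part in patterning of the trunk, were higher in LGR5-high, while HOXC5 and HOXC4 at the other end of the cluster were lower. HOXC9 held 285 and 258 counts in LGR5-high and 94 and 127 in LGR5-negative, with a log2 fold change of 1.10 (standard error 0.207, adjusted p = 0.00827). HOXC8 held 1083 and 1025 counts against 533 and 705, with a log2 fold change of 0.57 (standard error 0.138, adjusted p = 0.0195). HOXC6 held 1809 and 1509 counts against 1107 and 1000, with a log2 fold change of 0.45 (standard error 0.126, adjusted p = 0.032). The 3 genes did not overlap between populations, and their differences were smaller than that of HOXC13.

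HOXC4 went the other way, with 1239 and 1005 counts in LGR5-high and 1987 and 1704 counts in LGR5-negative. Both LGR5-negative libraries were above both LGR5-high libraries, at 63.0 ± 9.43 CPM (SD, n = 2) against 33.2 ± 3.97 CPM (SD, n = 2). For HOXC4 the log2 fold change came to -0.92 (standard error 0.144, adjusted p = 0.00432). HOXC5 held 324 and 277 counts in LGR5-high and 359 and 364 in LGR5-negative, with a log2 fold change of -0.47 (standard error 0.148, adjusted p = 0.0465). HOXC5 was near the threshold and kept its call in 3 of 14 alternatives (adjusted p between 0.0144 and 0.225), with DESeq2's size factors, the replicate block and limma-voom. The call was lost when any 1 of the libraries was left out (adjusted p between 0.0914 and 0.218), with upper quartile scaling, with both other filters and in DESeq2 with and without the block. It was also lost when libraries were scaled by their size alone, where its log2 fold change was -0.24 (adjusted p = 0.225) and the median of all genes tested moved from 0.02 to 0.24.

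**Figure D3:**
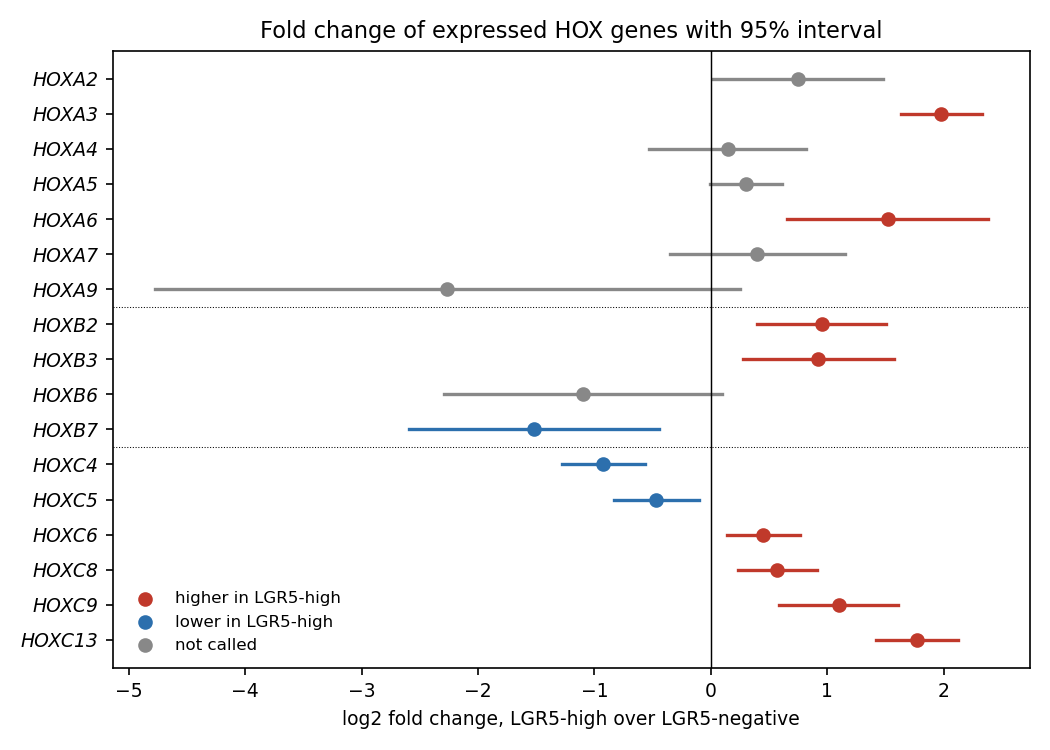
Log2 fold change of LGR5-high over LGR5-negative for the 17 expressed HOX genes in cluster and number order, with 95% intervals that are not adjusted for multiple tests. Red genes were higher and blue genes lower at an adjusted p-value under 0.05; HOXC4 and HOXC5 lie below 0, and HOXC6, HOXC8, HOXC9 and HOXC13 above 0.

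In the HOXA cluster, HOXA3 and HOXA6 were higher in LGR5-high and 0 genes were called lower by edgeR's quasi-likelihood test. In that fit 0 were lower at an unadjusted p under 0.05 as well. At the unadjusted threshold 1 HOXA gene was lower in edgeR with all genes of at least 1 count, in DESeq2 and in limma-voom. The replicate block gave 1 lower gene, HOXA9, under both edgeR and DESeq2, and DESeq2 without it gave 0 at the adjusted threshold. HOXA9 met the expression rule only through LGR5-negative, so this call is not counted as support. HOXA3, a gene needed for organs of the pharynx such as the thymus, held 801 and 845 counts in LGR5-high and 166 and 198 in LGR5-negative. Its levels were 24.4 ± 1.61 CPM (SD, n = 2) and 6.19 ± 0.514 CPM (SD, n = 2), a log2 fold change of 1.98 (standard error 0.141, adjusted p = 2.85e-04), or 3.95-fold. HOXA3 was the only HOX gene that was called in all 14 alternatives. HOXA6 held 412 and 766 counts in LGR5-high and 146 and 215 in LGR5-negative, with a log2 fold change of 1.52 (standard error 0.349, adjusted p = 0.0164). Both of its LGR5-high libraries were above both LGR5-negative ones, and without the LGR5-high library of 95R the log2 fold change was 0.97 (adjusted p = 0.0574). In the RefSeq annotation of Sscrofa11.1, the span of HOXA3 overlaps HOXA4, HOXA5, HOXA6 and 3 genes without a HOX name. HOXA5 and HOXA6 also overlap each other, so that the division of reads among these genes is uncertain.

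The other HOXA genes described here were not called. HOXA2, which acts in the hindbrain and in the arches of the embryonic head, held 105 and 114 counts in LGR5-high and 66 and 47 in LGR5-negative, with a log2 fold change of 0.75 (adjusted p = 0.087, and 0.0298 with the replicate block). The populations did not overlap for HOXA2. HOXA5, which is known for its part in lung development, held 1407 and 1511 counts against 1088 and 969, with a log2 fold change of 0.30 (adjusted p = 0.0984, and 0.0351 with the replicate block). HOXA4 held 186 and 177 counts against 171 and 113, and the 95% interval of its log2 fold change ran from -0.53 to 0.82. HOXA7 held 267 and 448 counts against 197 and 279, with an interval from -0.35 to 1.15. For both genes the populations overlapped, and their directions turned when 1 library was left out, that of HOXA4 without the LGR5-negative library of 95R (-0.17) and that of HOXA7 without the LGR5-high library of 95R (-0.0502).

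HOXA9, known from blood progenitors and leukaemia, was the HOX gene with the widest spread between animals. It held 1 and 25 counts in LGR5-high and 31 and 81 in LGR5-negative. In each animal LGR5-negative was the higher one, and the populations did not overlap, but the LGR5-high value of 95R was close to the LGR5-negative value of 88R, at 0.756 and 1.09 CPM. In 88R the ratio of LGR5-negative to LGR5-high was 37.4 (95% exact binomial counting interval 6.23 to 1524). For HOXA9 the log2 fold change came to -2.27 (standard error 1.02, adjusted p = 0.122), which became -2.47 under the replicate block (adjusted p = 4.03e-04). Without the LGR5-high library of 95R it was -5.83. Because HOXA9 met the expression rule only through LGR5-negative, its calls in the alternatives are not counted as support.

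The HOXB cluster was split between low and middle numbers. HOXB2, which acts in the hindbrain, held 599 and 583 counts in LGR5-high and 314 and 214 in LGR5-negative, with a log2 fold change of 0.96 (standard error 0.224, adjusted p = 0.0178). HOXB3 held 182 and 191 counts against 67 and 105, with a log2 fold change of 0.92 (standard error 0.263, adjusted p = 0.0337). Neither gene overlapped between populations. HOXB7 was lower in LGR5-high, with 60 and 143 counts against 211 and 302 and a log2 fold change of -1.52 (standard error 0.434, adjusted p = 0.034). HOXB6, its neighbour, held 32 and 76 counts against 76 and 128. The log2 fold change came to -1.10 (standard error 0.484, adjusted p = 0.116, and 0.00235 with the replicate block). HOXB8 and HOXB13, beyond HOXB7 in the cluster, had at most 4 counts.

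Read by paralog group, members of the same number did not always move together. In group 3, HOXA3 and HOXB3 were both higher in LGR5-high, and HOXD3 had at most 2 counts. In group 4, HOXC4 was lower and HOXA4 was not called. In group 6, HOXA6 and HOXC6 were higher, while the estimate for HOXB6 was below 0 and not called. In group 9, HOXC9 was higher, HOXA9 was estimated below 0 and not called, and HOXD9 had at most 6 counts. With the replicate block edgeR called both HOXB6 and HOXA9 lower, while DESeq2 with the block called HOXA9 and not HOXB6. Differences between the members of a group were not tested.

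Leaving out 1 library left a population with a single library, which was then assumed to vary like the other population. Without the LGR5-high library of 88R or of 95R, 3 HOX genes were higher in each case in place of 8. Without the LGR5-high library of 88R or the LGR5-negative library of 95R, 1 was lower in place of 3. The calls of HOXA3, HOXC4 and HOXC13 held without each of the libraries in turn. HOXC9 lost its call without the LGR5-high library of 88R (adjusted p = 0.0517), at a log2 fold change of 1.05 against 1.10 with all libraries. HOXB7 lost it without that library (-1.01, adjusted p = 0.0602) or the LGR5-negative library of 95R (-1.30, adjusted p = 0.0766), against -1.52. HOXB2 lost it without either LGR5-high library (adjusted p = 0.0713 and 0.0813), while its log2 fold change stayed at 0.95 in both fits against 0.96. HOXC8 and HOXB3 lost it without either LGR5-high library or the LGR5-negative library of 88R (adjusted p between 0.057 and 0.0837, and between 0.0979 and 0.143), with log2 fold changes of 0.42 to 0.59 for HOXC8 and 0.66 to 0.98 for HOXB3. HOXC6 lost it without either LGR5-high library or the LGR5-negative library of 95R (adjusted p between 0.0562 and 0.175), with log2 fold changes of 0.33 to 0.55.

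Within each animal, 16 of the 17 genes had the same direction of difference between the populations, 11 with LGR5-high above, beside 44.0% of all genes tested, and 5 with LGR5-negative above, beside 41.9%, and this count includes the genes that were not called. The exception was HOXA4, with a log2 difference of -0.15 in 88R and 0.51 in 95R. HOXA3 differed by 1.99 in 88R and 1.95 in 95R on the log2 scale, HOXC13 by 1.86 and 1.66, HOXC6 by 0.44 and 0.46 and HOXC4 by -0.95 and -0.89. These genes gave nearly equal values in both animals. HOXB7 gave -2.05 and -1.20, and HOXA9 gave -3.64 and -1.74, with a prior count of 2.

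**Figure D4:**
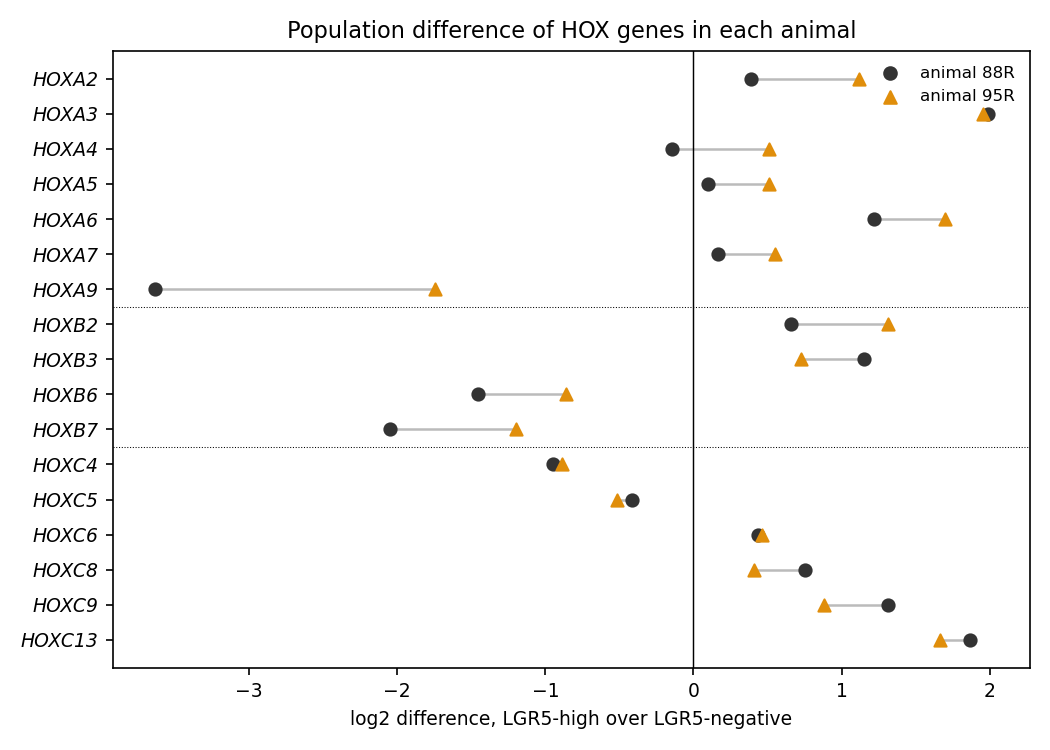
Log2 difference of LGR5-high over LGR5-negative within animal 88R (circles) and animal 95R (triangles) for the 17 expressed HOX genes, computed from CPM with a prior count of 2 and joined by a line. HOXA3, HOXC4, HOXC6 and HOXC13 give nearly the same value in both animals, HOXA9 and HOXB7 lie farther apart, and HOXA4 lies on both sides of 0.

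The 2 animals were also set side by side within each population, with no test because each animal gave 1 library per population. HOXA6, HOXA7, HOXA9, HOXB6 and HOXB7 had higher values in 95R in both populations. The expressed HOXC genes of the same numbers, HOXC6 and HOXC9, did not follow. HOXC6 was at 0.868-fold and 0.852-fold in 95R in LGR5-high and LGR5-negative, and HOXC9 at 0.942-fold and 1.27-fold. HOXC8, which lies between them in number, was at 0.985-fold and 1.25-fold. HOXB6 was 2.47-fold and 1.59-fold higher in 95R in LGR5-high and LGR5-negative, HOXB7 2.48-fold and 1.35-fold, HOXA6 1.93-fold and 1.39-fold, and HOXA7 1.75-fold and 1.34-fold. HOXA9 rested on 1 and 25 counts in LGR5-high and on 31 and 81 counts in LGR5-negative. Together with HOXA3 and HOXB3, 7 of the 17 genes were higher in 95R in both populations, beside 30.6% of all genes tested, and 5 were lower in both (HOXA4, HOXC4, HOXC5, HOXC6 and HOXC13), beside 27.5%. For HOXA4 and HOXA7 the animals did not overlap in CPM, 2 of 17 or 11.8%, beside 14.9% of all genes tested. The melanocyte marker sum in LGR5-negative differed between the animals as well (63.4 and 238 CPM), and its part in these differences was not tested.

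**Figure D5:**
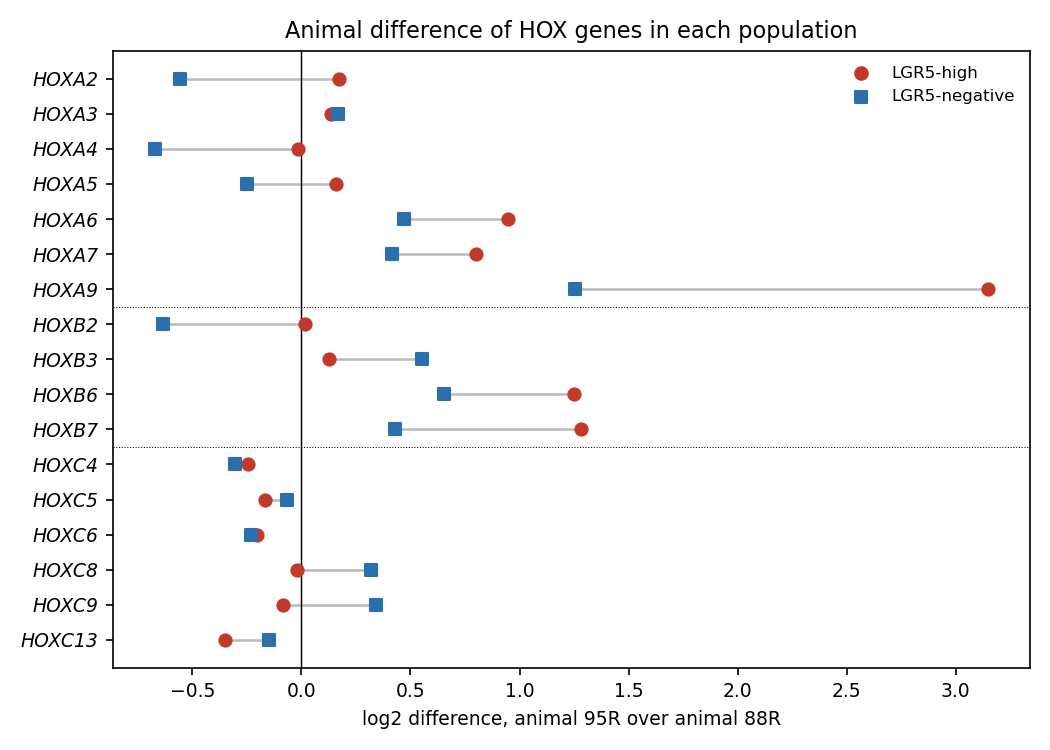
Log2 difference of animal 95R over animal 88R in LGR5-high (circles) and in LGR5-negative (squares) for the 17 expressed HOX genes, computed from CPM with a prior count of 2. HOXA6, HOXA7, HOXA9, HOXB6 and HOXB7 lie to the right of 0 in both populations, HOXC4, HOXC6 and HOXC13 to the left, and HOXC8 and HOXC9 on both sides.

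HOX proteins bind DNA together with cofactors of the TALE class of homeodomain proteins, the PBX, MEIS and PKNOX families. All 9 cofactor genes of the list were tested. Of all genes tested, 22.7% were higher in LGR5-high and 22.0% lower. MEIS2, MEIS3 and PBX4 were higher in LGR5-high, PBX3 was lower and 5 were not called, with a median log2 fold change of 0.30. MEIS2 held 764 and 606 counts in LGR5-high and 66 and 55 in LGR5-negative, and its log2 fold change of 3.29 (standard error 0.203, adjusted p = 1.88e-04) was larger than that of any HOX gene called higher. MEIS3 held 72 and 75 counts against 16 and 13, and its log2 fold change was 2.13 (adjusted p = 0.00417). PBX4 held 223 and 241 counts against 91 and 83, with a log2 fold change of 1.21 (adjusted p = 0.00614). PBX3 held 637 and 578 counts against 778 and 761, with a log2 fold change of -0.54 (adjusted p = 0.0125). With the replicate block 5 cofactors were higher and 2 lower, and with library size only 6 and 0.

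Chromatin regulators hold HOX clusters silent (the Polycomb proteins) or active (the trithorax proteins and the demethylases of the Polycomb mark). Of the 23 genes listed, 6 were higher in LGR5-high, 6 were lower and 11 were not called. Among all genes tested, 22.7% were higher and 22.0% lower. The median log2 fold change of the 23 genes was 0.04. The largest called differences were those of CBX6 (1.45), CBX2 (1.45), RNF2 (1.07), KDM6B (-0.80) and CBX8 (0.78), where CBX2, CBX6, CBX8 and RNF2 encode Polycomb proteins and KDM6B a demethylase. Among 17 listed upstream factors and retinoid genes, 10 were tested, and EGR2 (0.31) was higher while RARA (-0.42), RARG (-0.45) and RXRA (-0.48) were lower. ALDH1A2, which makes retinoic acid, held 16 and 29 counts in LGR5-high and 6 and 1 in LGR5-negative and entered the test only through LGR5-high, so its call is not counted here. With library size only, where the median of all genes tested was 0.24, 11 chromatin regulators were higher and 2 lower, and RARA, RARG and RXRA were not called lower. CDX1, CDX2 and CDX4, which activate HOX clusters in the embryo, had 0 counts in every library.

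Genes beside the clusters, on either flank, were listed to place the HOX values. EVX1 and EVX2, the homeobox genes at the ends of the HOXA and HOXD clusters, had 0 counts. Of 16 flanking genes tested, 5 were higher in LGR5-high and 0 lower, beside 22.7% and 22.0% of all genes tested. The median log2 fold change of the 16 was 0.28. The 5 higher genes were SNX10 (1.64), SKAP2 (0.90), CBX3 (0.74), ATP5G3 (0.38) and CALCOCO1 (0.25). At an unadjusted p under 0.05 from edgeR's quasi-likelihood test 9 were higher and 1 lower. With the replicate block 9 were higher and 1 lower at the adjusted threshold, and DESeq2 called 0 lower without the block and 1 with it.

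Other genes linked to the biology of HOXC13 and of body position were listed as well. Of 12 genes for factors of the hair matrix and for hair shaft keratins, 4 were lower and 4 not called. Of all genes tested, 22.7% were higher and 22.0% lower. The median log2 fold change of the list, with SHH included, was -0.14. The higher ones were MSX1, FOXN1 and LEF1. SHH, at 233 and 134 counts against 0 and 3, entered the test only through LGR5-high, so its call is not counted here. When only genes with 10 or more counts in all libraries were tested, 3 of the list were higher and 4 lower. FOXN1, a hair follicle transcription factor, held 1342 and 1295 counts against 707 and 764, with a log2 fold change of 0.64 (adjusted p = 0.00358). The lower ones were KRT35, KRT31, PRDM1 and DLX3, with the hair keratin gene KRT35 at 2440 and 1365 counts against 9686 and 7670 and a log2 fold change of -2.40 (adjusted p = 0.0015). Of 14 positional factors outside the clusters, 6 were tested. LMX1B (2.29) was higher in LGR5-high and FOXC2 was not called. PITX1 (2.65) was called higher too, but it reached 10 counts in both libraries only in LGR5-high, so its call is not counted here. The other 3 entered the test only through the population in which they held more counts, so their calls are not counted here. They were TBX18 with 22 and 13 counts against 0 and 4, PAX9 with 21 and 16 against 1 and 5, and PAX3 with 4 and 5 against 10 and 28. With 10 or more counts in all libraries, LMX1B and FOXC2 could be tested and LMX1B was called. PITX1, which specifies the hindlimb, held 56 and 116 counts against 6 and 18, and TBX5, which specifies the forelimb, had 0 or 1 count in each library.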

How the data were processed

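RNA of sorted LGR5-high and LGR5-negative epidermal cells from 2 pigs was sequenced in paired ends after poly(A) selection. The values deposited by the authors are raw counts for each gene symbol, with no normalization, and the submitters' processing notes name Trimmomatic 0.36, STAR 2.5.2b and featureCounts of Subread 1.5.2. The genome build, the annotation and the strand setting are not given in the sources used here. All 35 HOX symbols were found in RefSeq's annotation of Sscrofa11.1, from which only gene order and overlap were taken. An entry without a name (0.36% to 0.626% of counts) was left out. No sequence of the HOX genes was used here, and 1 HOX gene and 1 gene of the lists, which stayed in the fits, are not reported here.

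The comparison of counts used edgeR 4.0.16 in R 4.3.3, with filterByExpr (minimum count 10, minimum total count 15), TMM scaling, the quasi-likelihood test with population as the only term and Benjamini-Hochberg adjustment over 15980 genes. The standard error of a log2 fold change is its size divided by the square root of F. The alternatives were other scalings, other filters, the animal as a replicate block, DESeq2 1.42.0, limma-voom (limma 3.58.1), Student's t-test, which the study's methods name and which was computed here on log2(CPM + 1), and each library left out. The edgeR and DESeq2 fits (with and without the block), limma-voom and the t-test were run on simulated counts with known changes. The outcome is not reported here. The simulated counts held no animal effect, so they do not bear on the choice between fits with and without the block. Same-animal libraries pair the samples, and the correlation of their deviations from the population means was 0.370. The members, lists and tests were chosen with earlier results of these data known. Called members of a list are named by the 5 largest differences. CDX1, CDX2, CDX4, EVX1, EVX2, TBX5, FOXC2, FOXN1, LEF1, DLX3 and single marker genes were named after their values had been seen. Plots were drawn with matplotlib 3.10.9.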

Additional observations from a re-analysis of the deposited data

How the results depend on the processing

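Of 237 values of single HOX genes under the alternatives, 189 kept direction and side of the threshold, 36 kept direction but lost the call, 10 gained it and 2 reversed. Over the fits without a library the log2 fold changes of HOXA4 (-0.17 to 0.52) and HOXA7 (-0.0502 to 0.74) took both signs, and 0 of the reversed values were called. The number of expressed HOX genes was 16 to 20 under the other count rules. The numbers of HOX genes called were 7 to 10 higher and 2 to 3 lower, in place of 8 and 3, with the other scalings and filters, DESeq2 with and without the replicate block and limma-voom. Student's t-test called 1 higher and 0 lower. The replicate block called 10 higher and 5 lower, with HOXA9, which met the expression rule only through LGR5-negative, among the 5. Leaving out each library gave 3 to 7 higher and 1 to 4 lower. The cause was not tested, other than that fewer libraries entered the last of these. With 2 libraries in each population, counts under 10 limit what can be said of the HOXD genes.

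In the gene lists, called genes (higher and lower, including those that entered the test through 1 population only) moved as follows. For the cofactors, 3 and 1 became 5 higher with upper quartile scaling, 6 and 0 with library size only, 5 and 2 with the replicate block, 2 lower with DESeq2 and the block, 0 and 0 with the t-test, and 3 to 6 and 0 to 2 without a library. For the chromatin regulators, 6 and 6 became 3 lower with upper quartile scaling, 11 and 2 with library size only, 0 and 1 with the t-test, and 3 to 5 and 2 to 4 without a library. For the upstream genes, 2 and 3 became 0 higher with all genes of at least 1 count, 1 higher with 10 or more counts in all libraries, 1 higher with DESeq2, 0 higher with DESeq2 and the block, 1 lower with upper quartile scaling, 0 lower with library size only, 0 and 0 with the t-test, and 0 to 2 and 0 to 2 without a library. For the flanking genes, 5 and 0 became 10 higher with upper quartile scaling, 11 higher with library size only, 9 and 1 with the replicate block, 1 lower with DESeq2 and the block, 0 higher with the t-test, and 3 to 4 and 0 to 1 without a library. For the hair list, 4 and 4 became 1 and 0 with the t-test and 3 to 4 and 2 to 5 without a library. For the positional factors, 4 and 1 became 1 and 0 with 10 or more counts in all libraries, 2 and 0 with DESeq2 with or without the block, 0 lower with limma-voom, 0 and 0 with the t-test, and 1 to 4 and 0 to 1 without a library.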

Other observations

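The RefSeq table places 20 further genes between the outermost HOX genes described, and 9 of them had 10 or more counts in both libraries of a population. They were chosen after the HOX values had been seen, so they were not tested. Several are long non-coding RNAs without a name of their own. LOC106510294, whose span overlaps HOXC8 and HOXC9, held 357 and 308 counts in LGR5-high and 136 and 206 in LGR5-negative, where both HOXC8 and HOXC9 were higher in LGR5-high too. LOC110260669, which overlaps HOXC6, held 540 and 422 counts against 214 and 244. LOC110257592, whose span overlaps that of HOXA3, held 65 and 71 counts against 14 and 12. The populations did not overlap in CPM for 6 of the 9, beside 76.6% of all genes tested. In these 6, among them the 3 just named, LGR5-high was above. The share of all genes without overlap in that direction was not computed. By a looser measure, 44.0% of all genes tested had LGR5-high above within both animals. The populations overlapped for LOC106506841, LOC102166259 and LOC102167757. Reads of overlapping genes on opposite strands cannot be told apart where the counting did not use the strand, and the strand setting is not given in the sources used here. The HOX cluster miRNA genes MIR10A, MIR10B, MIR196A-1, MIR196A-2 and MIR615 had 0 to 3 counts, in libraries of poly(A) RNA that do not measure mature miRNAs.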
